A study of Mus musculus with 15 samples.

Results

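The 39 genes described here are interferon-stimulated genes, which cells switch on after an interferon binds its receptor. They were taken by name from a list chosen with earlier results of these data known. All 39 had a row in the deposited tables of 35275 genes. Of these, 30 are genes induced mainly by type I interferons and 9 are GTPase genes induced mainly by interferon-gamma, and the groups are described apart. All 39 passed the filter on low counts that left 13837 genes for testing.

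The series holds liver RNA-seq of C57BL/6 mice in 3 feeding groups with 5 libraries each and addresses how fasting regimens shape expression in the liver. In the ad libitum group (AL) food was always present. The IF16 group fasted intermittently for 16 h and the EOD group fasted for 24 h every other day. All groups shared the strain, began at 3 months of age, ended at 6 months of age after 3 months on the regimen, and gave the left lateral lobe as tissue, so mRNA selected with poly-T beads came from whole liver and not from a sorted cell type. The labels name neither the sex, nor the hour of sampling, nor the time since the last meal, and leave it unsaid whether the 5 libraries of a group came from 5 mice. The p-values therefore measure how these libraries vary, and some of that variation may be technical.

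Type I interferons are secreted by cells that detect foreign or misplaced nucleic acid. These interferons bind IFNAR1 and IFNAR2 and signal through the kinases JAK1 and TYK2. The signal activates a complex that includes STAT2 and IRF9 and binds the interferon-stimulated response element (ISRE). Interferon-gamma, made by T and NK cells, binds IFNGR1 and IFNGR2, and its signal acts through the gamma-activated site (GAS). In liver, hepatocytes, macrophages and endothelial cells can all respond, and the products sense viral RNA, block viral replication or attack vacuoles that hold microbes.

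These motifs can be read in the promoters. RefSeq windows from 250 bases before to 50 bases after the gene start (GRCm38.p6, the mm10 assembly) were matched for 28 of the 39 genes. No window was matched for Dhx58, Zbp1, Usp18, Oas2, Mx1, Mx2, Rtp4, Ifi27, Parp14, Gbp6 and Iigp1. The 6 windows below are cut to the 130 bases before the start and are printed on the strand of the gene, 5′ to 3′. They were chosen because these genes passed a test described further on and stand for different patterns across the feeding groups. Capitals mark each match to the ISRE core (GAAANNGAAA or its reverse complement TTTCNNTTTC) or to GAS (TTCNNNGAA, which reads alike on both strands).
Isg15 (chr4:156200819-156200948, minus strand): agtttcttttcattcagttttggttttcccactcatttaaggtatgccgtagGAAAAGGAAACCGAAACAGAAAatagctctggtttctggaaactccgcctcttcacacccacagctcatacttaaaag
Ifit1 (chr19:34640759-34640888, plus strand): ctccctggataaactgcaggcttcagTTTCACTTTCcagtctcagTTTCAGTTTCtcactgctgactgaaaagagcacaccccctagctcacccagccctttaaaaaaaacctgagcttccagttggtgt
Rsad2 (chr12:26456453-26456582, minus strand): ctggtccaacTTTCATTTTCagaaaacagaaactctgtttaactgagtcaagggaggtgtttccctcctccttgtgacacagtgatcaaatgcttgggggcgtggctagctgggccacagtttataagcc
Gbp7 (chr3:142530206-142530335, plus strand): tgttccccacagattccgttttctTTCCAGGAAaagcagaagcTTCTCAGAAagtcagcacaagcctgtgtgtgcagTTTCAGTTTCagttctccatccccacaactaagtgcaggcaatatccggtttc
Igtp (chr11:58199426-58199555, plus strand): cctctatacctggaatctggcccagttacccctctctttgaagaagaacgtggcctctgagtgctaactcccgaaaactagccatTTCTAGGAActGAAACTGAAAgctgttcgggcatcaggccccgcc
Irgm2 (chr11:58214847-58214976, plus strand): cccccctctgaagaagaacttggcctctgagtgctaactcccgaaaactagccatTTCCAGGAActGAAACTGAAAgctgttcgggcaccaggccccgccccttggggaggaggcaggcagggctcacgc
The capitals in Isg15 hold 3 overlapping ISRE cores, which begin 78, 72 and 66 bases before the start. Ifit1 carries ISRE cores at 104 and 85 bases and Rsad2 has 1 at 120 bases. Gbp7 has GAS matches at 106 and 87 bases followed by an ISRE core at 53 bases. Igtp and Irgm2, which neighbour each other on chromosome 11, each hold a GAS match directly upstream of an ISRE core, at 45 and 34 bases in Igtp and at 75 and 64 bases in Irgm2.

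An ISRE core was found in the windows of 10 of 21 matched type I genes (Stat2, Ddx58, Ifih1, Isg15, Ifit1, Ifit3, Oas1a, Oas3, Rsad2 and Bst2) and of 7 of 7 matched GTPase genes. Of all 27025 genes with a RefSeq window of this length, 1079 (3.99%) held one. A GAS match was found for 5 of 21 type I genes (Irf1, Ifit2, Oas1a, Bst2 and Ifi35) and 4 of 7 GTPase genes (Gbp7, Igtp, Irgm2 and Tgtp1), and for 2582 of all genes (9.55%). The searches covered both strands, and in Bst2 a GAS match overlaps an ISRE core. A match describes letters in the window and is not evidence of binding in these livers.

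**Figure D1:**
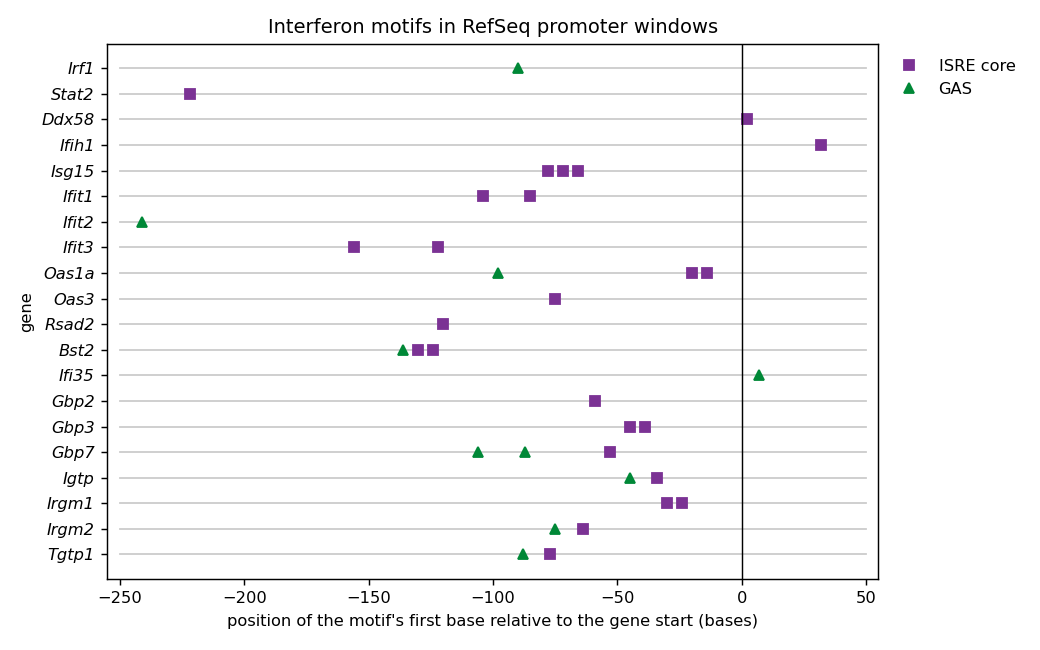
Positions of ISRE core (squares) and GAS (triangles) matches relative to the gene start (x axis, bases) in the RefSeq windows of the 20 members that hold any. Most matches lie before the start; the ISRE cores of Ddx58 and Ifih1 and the GAS match of Ifi35 lie after it.

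Libraries held 28129883 to 38147534 counts, and levels are given as CPM, the count after TMM scaling to equal library size, in which 3 counts amount to 0.078 to 0.107 CPM. The hepatocyte markers (8 genes, Alb among them) summed to between 94100 and 142000 CPM in every library, and no marker of any list of other liver cells was at 0 in all libraries. AL replicates 4 and 5 stood apart: 12 acute phase genes summed to 31100 and 45400 CPM there, against 8130 to 10400 in the other AL libraries, 10200 to 11900 in IF16 and 11900 to 15700 in EOD. Their summed neutrophil markers were 33.2 and 31.3 CPM, against 1.92 to 5.57 in the 13 other libraries. Calls of named genes that were gained or lost without these libraries are given both ways. The mitochondrial share of counts was 10% to 15.1% in AL, 8.98% to 11.5% in IF16 and 5.34% to 10.1% in EOD.

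Compared per gene length (FPKM, the level scale used in this paragraph only), the members spanned more than 3 orders of magnitude. Bst2, which encodes tetherin, a membrane protein that holds virions at the cell surface, had the highest mean level in every group, with 268 ± 24.5 FPKM in AL, 281 ± 17 in IF16 and 210 ± 8.65 in EOD (mean ± SD, n = 5, as for every such value). Ifi27, a small hydrophobic membrane protein, followed with means of 101, 73 and 90.3 FPKM, and its libraries did not overlap those of Bst2. The vacuole-attacking GTPase Iigp1 came next with means of 69.2, 61.3 and 69.1 FPKM. Iigp1 reached 73.1 FPKM in IF16 and 87.8 in EOD, within the ranges of Ifi27 there (60.1 to 81.2 and 85.1 to 99.3), so these neighbours are not apart beyond their spread in the fasting groups. In AL they were apart, with at most 76.2 FPKM for Iigp1 and at least 85.7 for Ifi27. Below them came a run of genes with close values, among them Isg15 at 20.2 ± 1.98 FPKM and the transcription factor Irf7 at 18.4 ± 4.11 FPKM in AL, whose libraries overlapped. At the low end stood Mx1, with means of 0.459, 0.285 and 0.213 FPKM, and Oas3, with 0.161, 0.128 and 0.13 FPKM, the latter from 7 to 44 counts a library.

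**Figure D2:**
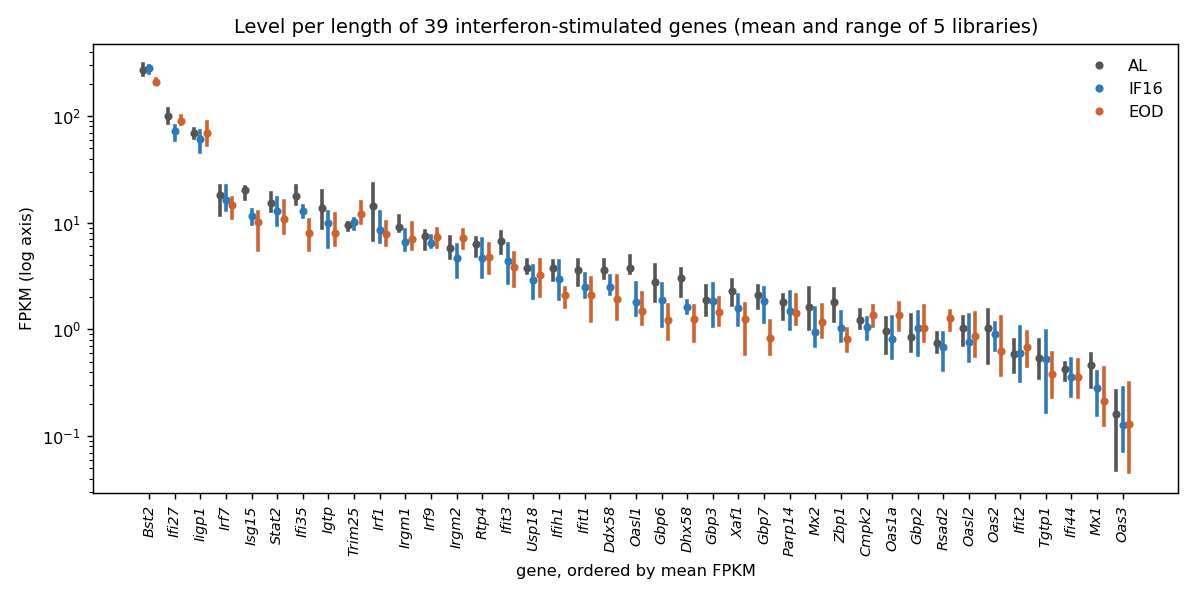
Level per gene length (FPKM, log axis) of the 39 members, ordered by mean; points are group means and bars the range over 5 libraries. Bst2 stands highest at 210 to 281 FPKM and Oas3 lowest at 0.128 to 0.161 FPKM.

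Fewer cells of a type and less RNA per cell cannot be told apart in bulk liver, and this holds for each difference below. The IF16 and EOD groups were both compared with the same 5 AL libraries, so these comparisons are not independent of each other. Because the members were chosen with earlier results of these data known, their shares beside those of all genes are descriptive and not a test. A gene is said to rise or fall where the adjusted p of edgeR's quasi-likelihood test (Benjamini-Hochberg over all 13837 genes) was under 0.05.

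Under IF16, 5 of the 30 type I genes fell against AL (Dhx58, Zbp1, Isg15, Oasl1 and Ifi27) and none rose in edgeR's test. These 5 make up 16.7% of the group, beside 3.5% of all genes tested, of which 2.1% were lower and 1.4% higher. The median log2 fold change of the 30 genes was -0.41, beside a median of 0 over all genes tested, and 27 of the 30 values were negative. At an unadjusted p under 0.05, 15 of the 30 were lower and 0 higher, beside 2579 of the 13837 genes in either direction. Of the 9 GTPase genes 0 passed in edgeR, 3 had an unadjusted p under 0.05 and DESeq2 called 1, with a median of -0.2. Without overlap between the libraries of IF16 and AL, 6 of the 39 members were lower and 0 higher, beside 3.19% and 2.59% of all genes. Without AL replicates 4 and 5, 2 of the 5 type I calls were kept, Dhx58 and Oasl1, and the median was -0.24.

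Under EOD, 14 of the 30 type I genes fell and 2 rose against AL, which together is 53.3% of them. The background was high, since 35.2% of all genes tested differed between EOD and AL, 17.6% lower and 17.6% higher. The median log2 fold change was -0.45 for the type I genes and -0.01 for all genes tested. Of the 30 type I values 25 were negative, beside 7050 of the 13837 over all genes. Of the 9 GTPase genes 4 fell (44.4%) and none rose in edgeR, where 1 was higher at an unadjusted p under 0.05, and their median was -0.38. Among the 39 members 11 were lower and 2 higher in EOD without overlap of the libraries, beside 10.2% and 8.46% of all genes. With AL replicates 4 and 5 left out, 13 of the 30 type I genes passed in place of 16, and the median was -0.22. The calls of Irf1, Stat2, Bst2 and Xaf1 were lost, and Oas1a was gained as higher. Of the 9 GTPase genes 3 passed, with a median of -0.49.

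Between the fasting regimens, which share no libraries, EOD was lower than IF16 for Bst2 and Ifi35 and higher for Oas1a and Rsad2 among the type I genes, 13.3% of the 30. Among the 9 GTPase genes Gbp7 was lower and Irgm2 higher, 22.2%. Of all genes tested 16.1% differed in this comparison, 8.15% lower and 7.96% higher. The medians were -0.15 for the type I genes, -0.32 for the GTPase genes and 0 for all genes. Libraries did not overlap for 3 members that were lower and 2 that were higher, beside 6.26% and 4.63% of all genes. Without EOD replicate 5, 7 type I genes passed in place of 4, while calls over all genes went from 2229 to 3383, so that both counts moved with that library.

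**Figure D3:**
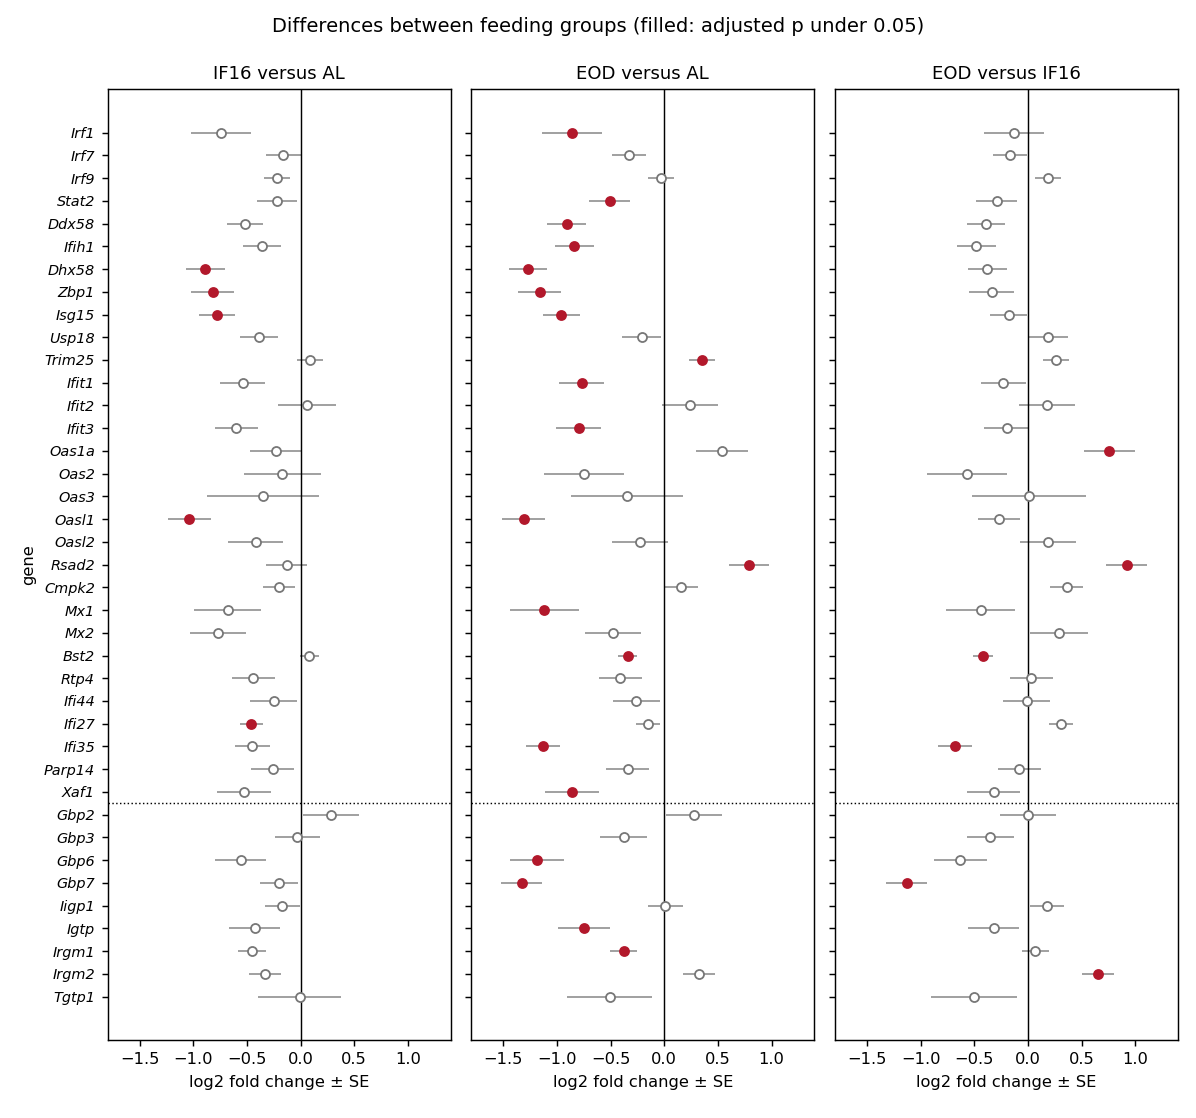
Log2 fold change ± SE (x axis) of each member in the 3 comparisons, from the fit over all genes; filled points passed an adjusted p of 0.05 and the dotted line separates the type I genes (above) from the GTPase genes (below). In EOD versus AL 18 members passed below 0 and 2 above, in IF16 versus AL 5 below and 0 above.

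The transcription factors that drive the response behaved unevenly. Irf1, which activates interferon-stimulated genes without interferon as well as with it, had 21.1, 24.1, 14.8, 42.1 and 50.5 CPM in AL, 25.6, 19.1, 14.6, 15.8 and 16.4 in IF16 and 14.1, 20.2, 13.9, 15.1 and 20.4 in EOD. The AL values were highest in replicates 4 and 5, and the other AL libraries overlapped both fasting groups. It fell 1.82-fold in EOD against AL (log2 -0.86 ± 0.28 SE, adjusted p = 0.0265), and the IF16 value of -0.74 did not pass (adjusted p = 0.169). It was -0.12 without AL replicates 4 and 5 (adjusted p = 0.811), and -0.92 without AL replicate 3 (adjusted p = 0.0499). Without AL replicates 4 and 5 the EOD value was -0.23 (adjusted p = 0.407), and leaving out AL replicate 4 or 5 alone or EOD replicate 1, 3 or 4 gave adjusted p of 0.0565 to 0.0724. With no filter on low counts it was 0.0607.

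Stat2, the subunit of the ISRE-binding complex that carries its activation domain, had 54.5, 82.2, 59.6, 59.1 and 80.2 CPM in AL, 39.4, 48.7, 58.7, 75.9 and 64.5 in IF16 and 35.8, 45.2, 36.8, 51.7 and 65.4 in EOD. The groups overlapped, with 4 of the 5 EOD libraries below the lowest AL library. The fall in EOD was 1.43-fold (log2 -0.51 ± 0.19 SE, adjusted p = 0.0438). The adjusted p was 0.124 without AL replicates 4 and 5, 0.0601 with no filter on low counts and 0.0505 to 0.114 in 10 single-library omissions (AL replicates 2, 3 and 5, IF16 replicates 2, 3 and 5, and EOD replicates 1 to 4). The DNA-binding subunit Irf9 had means of 28.83, 24.74 and 28.17 CPM in AL, IF16 and EOD, and Irf7, which amplifies type I interferon production, had 40.96, 36.63 and 32.63 CPM. Neither passed in any comparison.

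All 4 sensors of nucleic acid fell in EOD with no overlap between its libraries and those of AL, and 2 of them also fell in IF16. Of all genes tested, 17.6% fell in EOD, 10.2% were lower there without overlap, and 2.1% fell in IF16. Of the IF16 calls, that of Dhx58 was kept in every alternative run and that of Zbp1 was not. Ddx58, which encodes the RNA sensor RIG-I, had 13.3, 12, 12, 14.2 and 17.7 CPM in AL, 11.6, 9.16, 8.78, 9.34 and 9.4 in IF16 and 6.76, 6.23, 5.08, 7.46 and 11.4 in EOD. Every AL library was above every fasted library, and EOD replicate 5 was the highest of its group. The fall was 1.87-fold in EOD (log2 -0.91 ± 0.18 SE, adjusted p = 0.000884), and the IF16 value of -0.52 ± 0.17 had an adjusted p of 0.111, or 0.0417 with these groups fitted alone and 0.0334 without EOD replicate 5. Without that library Ddx58 was also lower in EOD than in IF16 (adjusted p = 0.00877, in place of 0.14).

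Ifih1 encodes MDA5, which senses long double-stranded RNA. It had 22.9, 15.3, 18.8, 23.7 and 22.1 CPM in AL, 22.6, 16.8, 14.9, 10.7 and 15.3 in IF16 and 8.66, 12.8, 10.3, 14 and 11.9 in EOD. IF16 spread across both other groups, while the highest EOD library stayed below the lowest AL library. The fall in EOD was 1.78-fold (log2 -0.84 ± 0.18 SE, adjusted p = 0.00166), and the difference from IF16 (-0.48) had an adjusted p of 0.0719, or 0.0273 without IF16 replicate 4.

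Dhx58, which encodes LGP2, a regulator of RIG-I and MDA5, had 7.36, 8.6, 5.03, 8.19 and 7.19 CPM in AL, 4.18, 3.79, 3.62, 4.21 and 3.81 in IF16 and 1.85, 3.11, 2.74, 3.71 and 3.73 in EOD. Both fasting groups lay wholly below AL. The fall was 1.85-fold in IF16 (log2 -0.89 ± 0.18 SE, adjusted p = 0.0101) and 2.41-fold in EOD (log2 -1.27 ± 0.18 SE, adjusted p = 6.79e-05). Both calls were kept in every alternative run.

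Zbp1, a sensor of left-handed nucleic acid that can trigger cell death, had 5.58, 5.35, 4.01, 6.95 and 8.17 CPM in AL, 4.57, 3.88, 3.29, 2.64 and 2.67 in IF16 and 2.05, 2.37, 2.77, 3.15 and 3.1 in EOD. Values were lower in both fasting groups, with overlap of AL by 1 IF16 library and by no EOD library. It fell 1.76-fold in IF16 (log2 -0.82 ± 0.2 SE, adjusted p = 0.0305) and 2.24-fold in EOD (log2 -1.16 ± 0.2 SE, adjusted p = 0.000397). The IF16 call of Zbp1 did not hold without AL replicates 4 and 5 (log2 -0.54, adjusted p = 0.189), without AL replicate 4 or 5 alone or IF16 replicate 3, 4 or 5 (0.0671 to 0.0895), with the replicate number as a block (0.059), or with IF16 and AL fitted alone (0.0504).

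In the ISG15 system the modifier fell and an E3 ligase rose. Isg15 encodes the ubiquitin-like modifier itself and lies on chromosome 4 at 156199424 to 156200818 (ENSMUSG00000035692, mm10). It had 14.9, 15.9, 12.8, 16 and 16.2 CPM in AL, 9.07, 8.27, 10.4, 7.52 and 8.86 in IF16 and 4.16, 9.37, 7.64, 9.98 and 7.8 in EOD. No fasted library reached the lowest AL library, and EOD replicate 1 was the lowest of all. The fall was 1.72-fold in IF16 (log2 -0.78 ± 0.17 SE, adjusted p = 0.0173) and 1.95-fold in EOD (log2 -0.96 ± 0.17 SE, adjusted p = 0.000501). Without AL replicates 4 and 5 the IF16 value was -0.71 with an adjusted p of 0.0737.

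Trim25, a ubiquitin and ISG15 ligase that assists RIG-I, had 45.9, 54.4, 54.4, 52.6 and 56.7 CPM in AL, 53, 60.5, 51.2, 61.9 and 54.7 in IF16 and 57.2, 88.1, 58.4, 59.5 and 73.5 in EOD. All EOD libraries were above all AL libraries, 3 of them by a small margin. It rose 1.28-fold in EOD (log2 0.35 ± 0.12 SE, adjusted p = 0.0271), and the call was lost without EOD replicate 2 (0.0953) or AL replicate 1 (0.0525) and with these groups fitted alone (0.0564). Usp18, which removes ISG15 and restrains the receptor, had means of 6.677, 5.082 and 5.788 CPM and did not pass in any comparison.

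Of the IFIT genes, whose products bind viral RNA and block its translation, Ifit1 and Ifit3 fell in EOD. Ifit1 had 9.65, 11.6, 6.99, 10.6 and 8.85 CPM in AL, 8.35, 7.33, 6.21, 5.66 and 5.29 in IF16 and 3.12, 6.25, 4.34, 6.83 and 7.52 in EOD. Only EOD replicate 5 reached the AL range. The fall in EOD was 1.7-fold (log2 -0.77 ± 0.21 SE, adjusted p = 0.00922). Ifit3 had 13.5, 13.9, 9.47, 11.7 and 9.45 CPM in AL, 10.4, 9.37, 7.07, 4.83 and 6.62 in IF16 and 4.37, 5.98, 6.75, 7.89 and 8.4 in EOD. Its EOD libraries were all below AL, and only IF16 replicate 1 entered the AL range. It fell 1.74-fold in EOD (log2 -0.8 ± 0.21 SE, adjusted p = 0.00617), and the IF16 values of both genes (-0.54 and -0.6) did not pass. Ifit2 had 2.203 CPM in AL, 2.301 in IF16 and 2.615 in EOD, and its values overlapped in all groups. Counts of these related genes could share reads.

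Of the 5 OAS family genes, Oasl1 fell in both fasting groups against AL and Oas1a was higher in EOD than in IF16. Oasl1, which encodes an OAS-like protein that in mouse represses translation of Irf7 mRNA, lies on chromosome 5 at 114923240 to 114937915 (ENSMUSG00000041827, mm10). It had 10.2, 7.25, 7.44, 8.12 and 7.56 CPM in AL, 5.62, 4.12, 3.98, 3.01 and 3.02 in IF16 and 2.42, 3.91, 2.59, 2.92 and 4.48 in EOD. Every fasted library was below every AL library. The fall was 2.06-fold in IF16 (log2 -1.04 ± 0.2 SE, adjusted p = 0.00745) and 2.48-fold in EOD (log2 -1.31 ± 0.2 SE, adjusted p = 0.000111), and both calls were kept in every alternative run.

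Oas1a, which makes the 2-5A messenger that activates RNase L, had 1.63, 1.83, 1.14, 2.42 and 1.96 CPM in AL, 2.34, 1.28, 1.58, 1.04 and 1.43 in IF16 and 2.18, 1.87, 2.81, 3.45 and 2.73 in EOD. The EOD libraries were mostly above the others, with overlap. Oas1a was 1.7-fold higher in EOD than in IF16 (log2 0.76 ± 0.24 SE, adjusted p = 0.0378), while the value of 0.54 against AL did not pass (adjusted p = 0.0897, or 0.0397 without AL replicates 4 and 5 and 0.0494 without AL replicate 4). The difference from IF16 was lost in 6 single-library omissions (IF16 replicates 2 to 5 and EOD replicates 3 and 4, adjusted p 0.0597 to 0.0856) and with the replicate block (0.0568). Oas2 (4.083, 3.609 and 2.432 CPM in AL, IF16 and EOD), Oas3 (0.7624, 0.5934 and 0.6021) and Oasl2 (3.177, 2.371 and 2.72) did not pass in any comparison. Near-identical Oas1 copies make the Oas1a counts uncertain.

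**Figure D4:**
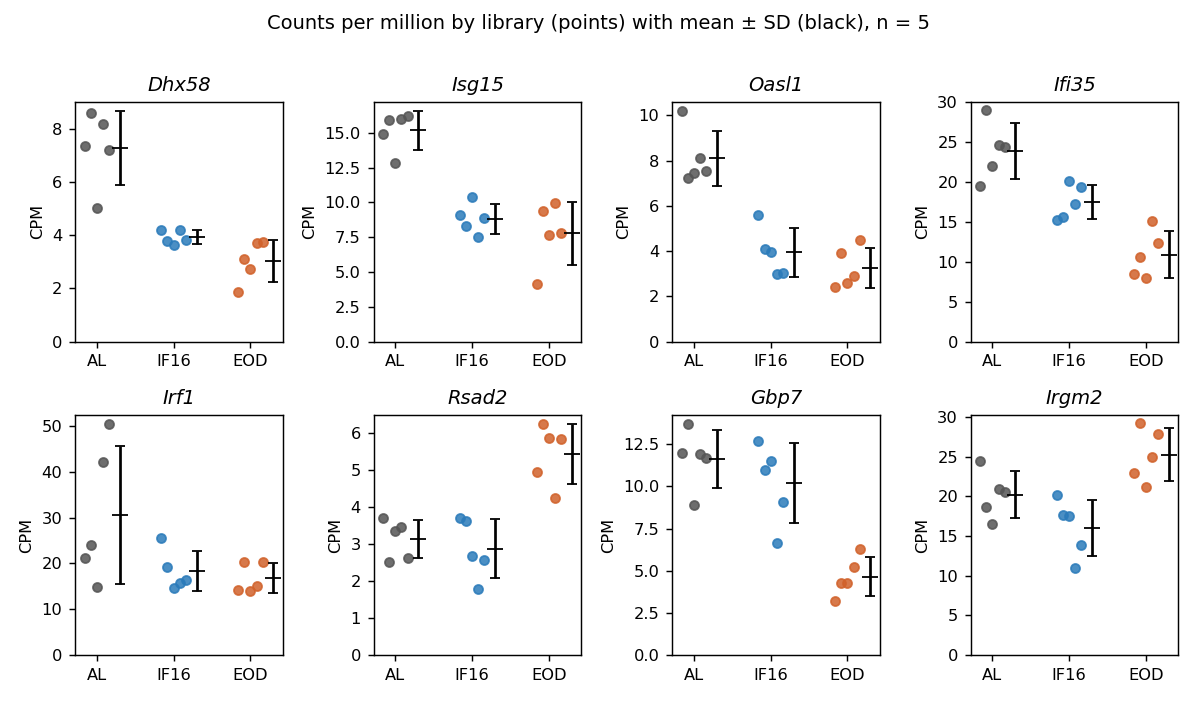
CPM per library (points) with mean ± SD (black bars, n = 5) for 8 members in the 3 feeding groups, each axis starting at 0. Dhx58, Isg15 and Oasl1 are lower in both fasting groups, Ifi35 is lowest in EOD and Gbp7 lower in EOD alone, Rsad2 is higher in EOD, Irgm2 is higher in EOD than in IF16, and Irf1 is highest in 2 AL libraries.

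Rsad2 rose in EOD, where Mx1, Bst2, Ifi35 and Xaf1 fell. It encodes viperin, which makes a chain-terminating nucleotide, and had 3.69, 2.52, 3.36, 3.46 and 2.63 CPM in AL, 3.69, 3.63, 2.66, 1.79 and 2.57 in IF16 and 4.94, 6.25, 5.86, 4.24 and 5.83 in EOD. All EOD libraries were above all others, and AL and IF16 overlapped. It rose 1.73-fold in EOD against AL (log2 0.79 ± 0.19 SE, adjusted p = 0.00407) and was 1.89-fold higher than in IF16 (log2 0.92 ± 0.19 SE, adjusted p = 0.00387). Both calls were kept in every alternative run. Its neighbour on chromosome 12, Cmpk2, a mitochondrial nucleotide kinase that supplies the substrate of viperin, had 3.893 CPM in AL, 3.395 in IF16 and 4.362 in EOD, and its log2 values of 0.16 against AL and 0.36 against IF16 did not pass. The Rsad2 window printed above carries an ISRE core, as do those of Isg15 and Ifit1, which fell in EOD.

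Ifi35, a cytosolic partner of NMI, was lowest in EOD. It had 19.5, 29, 22, 24.7 and 24.4 CPM in AL, 15.3, 15.7, 20.1, 17.3 and 19.4 in IF16 and 8.48, 10.6, 8.03, 15.1 and 12.4 in EOD. The EOD libraries lay below all libraries of both other groups, and IF16 overlapped AL at its upper end. Ifi35 fell 2.19-fold in EOD against AL (log2 -1.13 ± 0.16 SE, adjusted p = 5.55e-05) and was 1.61-fold lower than in IF16 (log2 -0.68 ± 0.16 SE, adjusted p = 0.00765). The IF16 value against AL, -0.45, did not pass (adjusted p = 0.122).

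Bst2 had 193, 189, 186, 213 and 240 CPM in AL, 202, 226, 202, 224 and 223 in IF16 and 156, 157, 179, 170 and 145 in EOD. EOD was below both other groups without overlap, and IF16 lay inside the AL range. The difference was 1.27-fold against AL (log2 -0.34 ± 0.09 SE, adjusted p = 0.01) and 1.34-fold against IF16 (log2 -0.42 ± 0.09 SE, adjusted p = 0.00679). Without AL replicates 4 and 5, which had the 2 highest AL values, the value against AL was -0.2 (adjusted p = 0.143).

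Ifi27 showed another order. It had 95.2, 81.3, 88.2, 116 and 110 CPM in AL, 67.8, 79.8, 71, 59.8 and 78.8 in IF16 and 84.5, 89.3, 91.6, 100 and 77.6 in EOD. IF16 lay below AL without overlap, and EOD lay between and overlapped both. It fell 1.37-fold in IF16 (log2 -0.46 ± 0.11 SE, adjusted p = 0.0312), and EOD did not differ detectably from AL (log2 -0.15, adjusted p = 0.334) or from IF16 (log2 0.31, adjusted p = 0.0688). The latter difference passed in DESeq2 (0.0453), in limma with a filter, without AL replicates 4 and 5 (0.0403) and without EOD replicate 5 (0.0245). The IF16 call of Ifi27 was lost in 7 single-library omissions (AL replicates 1, 4 and 5 and IF16 replicates 1, 3, 4 and 5, with adjusted p of 0.0502 to 0.0835), with the replicate block (0.059), and without AL replicates 4 and 5 together (log2 -0.3, adjusted p = 0.224).

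Mx1 and Xaf1 also fell in EOD. Mx1, a dynamin-like antiviral GTPase whose C57BL/6 allele is known to be defective, had 1.49, 1.9, 0.979, 2.04 and 1.32 CPM in AL, 1.26, 0.885, 0.559, 1.01 and 1.08 in IF16 and 0.468, 0.441, 0.569, 0.696 and 1.38 in EOD. EOD replicate 5 lay within AL, and the other EOD libraries were below AL. The fall was 2.18-fold (log2 -1.12 ± 0.32 SE, adjusted p = 0.0113). Xaf1, which promotes apoptosis, had 4.92, 7.22, 4.41, 7.6 and 5.5 CPM in AL, 5.17, 4.31, 4.37, 2.88 and 3.78 in IF16 and 1.51, 3.36, 2.63, 4.67 and 4.23 in EOD. Only EOD replicate 4 reached the AL range. The fall was 1.81-fold (log2 -0.86 ± 0.25 SE, adjusted p = 0.0137), with -0.73 and an adjusted p of 0.0653 without AL replicates 4 and 5. Mx2 (4.012, 2.343 and 2.868 CPM in AL, IF16 and EOD; log2 -0.77 in IF16, adjusted p = 0.116), Rtp4 (9.92, 7.311 and 7.454), Ifi44 (1.723, 1.45 and 1.446) and Parp14 (13.26, 11.04 and 10.45) did not pass in any comparison.

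**Figure D5:**
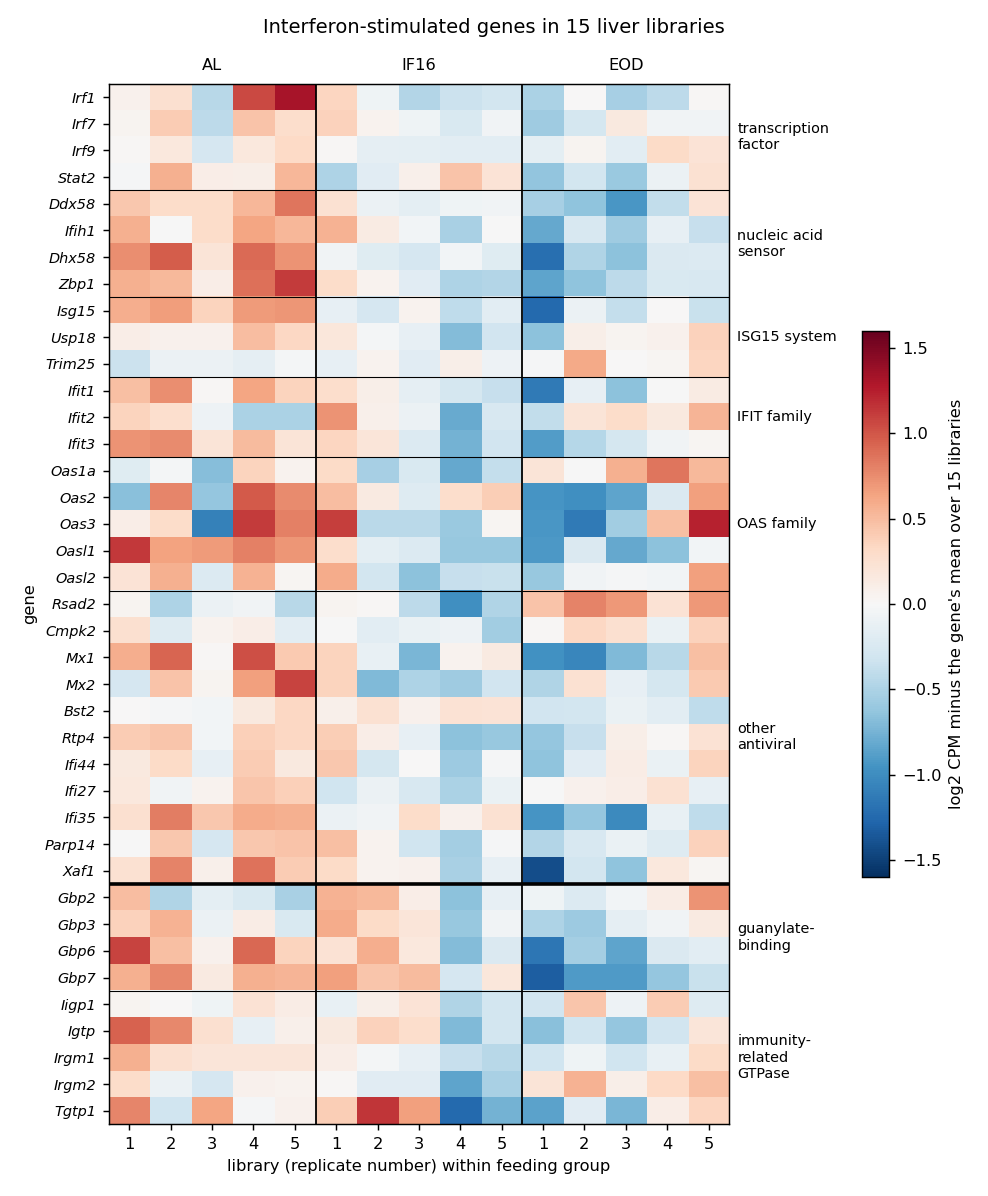
Log2 CPM of each member in each library minus the member's mean over the 15 libraries (colour), with rows by role and the thick line above the GTPase genes. AL columns are mostly above 0, EOD replicate 1 is low for most rows, Rsad2 and Irgm2 are high in EOD, and Irf1 is highest in AL replicates 4 and 5.

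Among the GTPase genes, the guanylate-binding proteins Gbp6 and Gbp7, which coat and help open microbe-holding vacuoles, fell in EOD. Gbp7 lies on chromosome 3 at 142530338 to 142550083 (ENSMUSG00000040253, mm10). It had 12, 13.7, 8.88, 11.9 and 11.7 CPM in AL, 12.7, 11, 11.5, 6.67 and 9.1 in IF16 and 3.2, 4.27, 4.27, 5.24 and 6.27 in EOD. EOD lay below both other groups without overlap, while IF16 and AL overlapped. Gbp7 fell 2.51-fold against AL (log2 -1.33 ± 0.19 SE, adjusted p = 6.09e-05) and was 2.19-fold lower than in IF16 (log2 -1.13 ± 0.19 SE, adjusted p = 0.000767). Its annotated span overlaps Gbp5 on the same strand by 19746 bases, and Gbp5 had a mean of 105.6 counts beside 283.7 for Gbp7, so its counts depend on how reads were assigned.

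Gbp6 had 16.5, 10.8, 8.09, 14.7 and 9.93 CPM in AL, 9.07, 11.7, 8.71, 4.75 and 6.62 in IF16 and 3.43, 5.29, 4.3, 6.56 and 6.86 in EOD. All EOD libraries were below all AL libraries, and IF16 overlapped both. The fall in EOD was 2.27-fold (log2 -1.19 ± 0.25 SE, adjusted p = 0.00171), and the difference from IF16 (-0.63) did not pass (adjusted p = 0.095, or 0.0405 without IF16 replicate 4). Gbp2 had 2.131, 2.601 and 2.592 CPM in AL, IF16 and EOD and Gbp3 had 5.028, 4.928 and 3.873, with overlap between all groups and no call. Gbp3 also overlaps Gbp5.

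The immunity-related GTPases, which control autophagy-like defence of vacuoles, split by gene. Igtp had 38.5, 34.1, 23.9, 18.2 and 21.3 CPM in AL, 22.3, 25.8, 24.3, 12.2 and 16.3 in IF16 and 12.6, 16, 13, 16.2 and 23 in EOD. AL replicates 1 and 2 were highest, and EOD replicate 5 lay inside the AL range. The fall in EOD was 1.68-fold (log2 -0.75 ± 0.24 SE, adjusted p = 0.0224), lost without AL replicate 1 or 2 or EOD replicate 1 or 3 (adjusted p 0.0569 to 0.0675). Irgm1, a regulatory member that guards the cell's own membranes, had 42.2, 34, 32.7, 32.6 and 32.7 CPM in AL, 30.7, 27.8, 26, 22.1 and 21 in IF16 and 22.8, 27.2, 22.8, 26.2 and 35.2 in EOD. IF16 lay below AL without overlap, and only EOD replicate 5 entered the AL range. Irgm1 fell 1.3-fold in EOD (log2 -0.38 ± 0.13 SE, adjusted p = 0.0359), a call lost in 6 single-library omissions (AL replicates 1 and 2 and EOD replicates 1 to 4, adjusted p 0.0505 to 0.119), without AL replicates 4 and 5 (0.0581) and with the replicate block (0.0503). Its IF16 value of -0.45 ± 0.13 had an adjusted p of 0.0717 in edgeR and 0.0314 in DESeq2, and 0.0393 or 0.0334 in edgeR without IF16 replicate 1 or EOD replicate 5.

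Irgm2, the related regulatory member, had 24.4, 18.6, 16.5, 20.9 and 20.6 CPM in AL, 20.1, 17.6, 17.5, 11 and 13.9 in IF16 and 22.9, 29.3, 21.2, 24.9 and 27.8 in EOD. EOD lay above IF16 without overlap, and AL stood between. Irgm2 was 1.57-fold higher in EOD than in IF16 (log2 0.65 ± 0.15 SE, adjusted p = 0.00705), and 0.32 against AL did not pass (adjusted p = 0.101, or 0.049 without AL replicate 1). The annotated spans of Igtp and Irgm2 share 7974 bases on the same strand, so that reads could be split between them, and their log2 values for EOD against AL had opposite signs. The deposited table starts Irgm2 at 58199618, upstream of the RefSeq start used for the printed window. Iigp1 had 215.3 ± 17.3, 192 ± 37.7 and 217.2 ± 53.6 CPM in AL, IF16 and EOD, and Tgtp1 had 1.506, 1.511 and 1.066 CPM. Neither passed, and Tgtp1 shares sequence with a near copy and spans with Gm12185.

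Averaged over the 30 type I genes, log2 CPM relative to each gene's mean over the 15 libraries was 0.23, 0.37, -0.05, 0.51 and 0.42 in AL, 0.24, -0.09, -0.19, -0.35 and -0.17 in IF16 and -0.61, -0.21, -0.26, -0.05 and 0.2 in EOD. AL replicate 3 lay among the fasted libraries, and IF16 replicate 1 and EOD replicate 5 lay within the range of AL. EOD replicate 4 equalled AL replicate 3 at the digits given. The same average over the 9 GTPase genes was 0.57, 0.21, 0.08, 0.19 and 0.07 in AL, 0.29, 0.36, 0.2, -0.65 and -0.28 in IF16 and -0.55, -0.2, -0.4, -0.04 and 0.16 in EOD. Here 3 IF16 libraries lay within AL and 2 were below all AL libraries. EOD replicate 1 was again the lowest of its group, and EOD replicate 5 was the highest and lay within AL. EOD replicate 5 also had the highest mitochondrial share of its group, 10.1%, and its part in the result was not tested.

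The ligands were close to absent from these libraries. Of 20 listed interferon genes 16 had no count in any library. That allows up to 0.107 CPM for each in EOD replicate 3, the smallest library after TMM scaling. This limit covers counting error only. Ifna7 and Ifnb1 had 1 count each over all 15 libraries, Ifnk had 16 and Ifng had 25, at most 4 in a library. No interferon gene passed the filter, and no difference between feeding groups was detectable at this depth.

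Among the receptors and their kinases, 8 of 9 listed genes were tested, and 1 of them changed. That is 12.5% in EOD against AL and in EOD against IF16, below the 35.2% and 16.1% of all genes. Ifnar2, a chain of the type I receptor, had 29.33 ± 5.58 CPM in AL, 27.06 ± 3.93 in IF16 and 41.76 ± 5.65 in EOD. It rose 1.42-fold in EOD against AL (log2 0.51 ± 0.14 SE, adjusted p = 0.00847) and was 1.54-fold higher than in IF16 (log2 0.63, adjusted p = 0.00578). The other chain, Ifnar1, had 23.83, 22.13 and 23.68 CPM, with log2 values of -0.11 in IF16 and -0.01 in EOD against AL. The interferon-gamma receptor chains Ifngr1 (12.5, 13.22 and 15.27 CPM) and Ifngr2 (13.58, 11.47 and 14.82 CPM) and Il10rb, a chain of the lambda receptor (6.439, 7.268 and 5.863 CPM), did not pass either. Without AL replicates 4 and 5, Ifngr1 and Ifngr2 passed in EOD against AL (adjusted p = 0.0123 and 0.0137), Ifngr1 also without AL replicate 4 alone (0.0284). Ifnlr1, the other lambda receptor chain, was under the filter with 41 counts in all.

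Among further transcription factors of the pathway, Irf2 and Irf5 fell in EOD against AL, and neither passed in the other comparisons. Irf2, which competes with IRF1 for its sites, had 53.95 CPM in AL, 44.29 in IF16 and 35.95 in EOD (log2 -0.59, adjusted p = 0.00222). Irf5, a factor of myeloid cells, had 8.031, 6.187 and 4.575 CPM (log2 -0.81 in EOD, adjusted p = 0.0179), and without AL replicates 4 and 5 its value was -0.27 (adjusted p = 0.325), or 0.0608 as adjusted p without AL replicate 4 alone.

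Between the sensors and the interferon genes stand adaptors and kinases, of which 9 of 11 were tested. In EOD 1 fell and 1 rose against AL (22.2%), and 1 was higher than in IF16 (11.1%). These shares were below the 35.2% and 16.1% of all genes. Ikbke, a kinase that activates IRF3 and is itself inducible, had 29.78 ± 19.1 CPM in AL, 11.58 in IF16 and 6.624 in EOD. Its IF16 value against AL, -1.36, had an adjusted p of 0.0542 in edgeR, but was -0.51 without AL replicates 4 and 5 (adjusted p = 0.253). It passed in DESeq2 (0.00158), with the replicate block (0.0427), with a filter of 1 CPM in 5 libraries (0.0458), and without AL replicate 1, 2 or 3 or EOD replicate 5 (0.0267 to 0.0489). The difference of EOD from IF16, -0.81, had an adjusted p of 0.148, or 0.0123 without AL replicates 4 and 5 and 0.0182 with these groups fitted alone. It fell 4.49-fold in EOD (log2 -2.17 ± 0.37 SE, adjusted p = 0.000619), or -1.29 on the log2 scale without AL replicates 4 and 5 (adjusted p = 0.000505). Tlr7, an endosomal RNA receptor, rose in EOD against AL (log2 1.03, adjusted p = 0.0249), a call lost without AL replicate 3 (0.062) or EOD replicate 4 (0.0883). The Tlr7 difference of EOD from IF16, 0.92, had an adjusted p of 0.0672 in edgeR and 0.0398 in DESeq2. In edgeR it also passed without IF16 replicate 1 (0.0422) or EOD replicate 2 (0.0485). Mavs, the mitochondrial adaptor of RIG-I and MDA5, was higher in EOD than in IF16 (log2 0.55, adjusted p = 0.00827). Its EOD value against AL, 0.29, had an adjusted p of 0.0823, or 0.0445 with the replicate block and 0.0441 without EOD replicate 4. None of the 5 listed brakes on the pathway passed in edgeR in any comparison, with 1 or 2 at an unadjusted p under 0.05 in each.

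Beyond the 39 members, 53 of 58 further interferon-induced genes were tested, from a list chosen with earlier results of these data known. In IF16 against AL 3 fell and 0 rose in edgeR (5.66%, median -0.29), beside 3.5% of all genes, and 15 had an unadjusted p under 0.05, beside 2579 of the 13837 genes. The 3 were Ifi27l2b, a relative of Ifi27 (log2 -1.11, adjusted p = 0.00303), Ube2l6, the E2 enzyme that conjugates ISG15 (log2 -0.58, adjusted p = 0.00995), and the galectin Lgals9 (log2 -0.52, adjusted p = 0.0185). Without AL replicates 4 and 5 the adjusted p was 0.0605 for Ube2l6 and 0.0561 for Lgals9, and the Lgals9 call was also lost without AL replicate 1 or IF16 replicate 3 or 5 (0.0519 to 0.0567).

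In EOD against AL 21 of the 53 fell and 2 rose (43.4%, median -0.41), beside the 35.2% of all genes given above. Ifitm3, which blocks viral entry by fusion, fell from 500.3 ± 130 CPM in AL to 225.7 ± 33.9 in EOD (log2 -1.15, adjusted p = 3.07e-05). Ube2l6 fell from 80.94 to 45.61 CPM (log2 -0.83, adjusted p = 5.59e-05), together with its substrate Isg15. Nmi, the binding partner of Ifi35, fell as well (log2 -0.73, adjusted p = 5.82e-05). In EOD against IF16 4 were lower and 2 higher (11.3%), below the 16.1% of all genes, and Ifitm3 (log2 -0.97, adjusted p = 0.00042), Mov10, an RNA helicase that restricts retroelements (-0.63, adjusted p = 0.011), and Nmi (-0.42, adjusted p = 0.0114) were among the lower ones.

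Markers of some other liver cells also differed between the feeding groups. None of 10 Kupffer cell and macrophage markers passed in edgeR in any comparison, also at an unadjusted p under 0.05, and their summed level was 149 to 353 CPM in AL, 186 to 507 in IF16 and 194 to 459 in EOD. Sinusoidal endothelial markers rose: 5 of 10 were higher in IF16 and 8 of 10 in EOD against AL, beside 1.4% and 17.6% of all genes. Their sums were 175 to 212 CPM in AL replicates 1 to 3 but 137 and 123 in AL replicates 4 and 5, with 251 to 300 in IF16 and 252 to 302 in EOD. Of 6 stellate cell markers 3 were higher in EOD against AL (50%), beside 17.6% of all genes. Their sums were 115 to 184 CPM in AL, 147 to 198 in IF16 and 191 to 279 in EOD. B and plasma cell markers summed to 5.7 to 8.91 CPM in AL replicates 1 to 3 but 2.21 and 1.86 in AL replicates 4 and 5, against 3.88 to 5.62 in IF16 and 3.15 to 4.8 in EOD. Of 5 tested, 1 was lower in EOD against AL (20%), near the 17.6% of all genes. Of 3 tested neutrophil markers 1 fell in IF16 and 3 fell in EOD against AL, beside 2.1% and 17.6% of all genes. Of 12 acute phase genes 1 fell in IF16, beside the same 2.1%. In EOD 7 of them fell and 1 rose, beside 17.6% of all genes in each direction. The sums of both lists were highest in AL replicates 4 and 5, as given above. In AL replicates 1 to 3 the acute phase sums (8130 to 10400 CPM) were below those of EOD (11900 to 15700). The neutrophil sums of these 3 libraries (2.48 to 3.7 CPM) lay within the range of EOD (1.92 to 5.57). Calls of both lists without AL replicates 4 and 5 are not given. Markers of T and NK cells, the source of interferon-gamma, summed to 4.18 to 5.56 CPM in AL, 3.71 to 5.26 in IF16 and 3.11 to 5.11 in EOD. Of 8 tested, 1 was lower in EOD against AL (12.5%), below the 17.6% of all genes. The tested markers of plasmacytoid dendritic cells, known for type I interferon, summed to 0.559 to 1.38 CPM over all libraries, with none of 2 called. The part of these markers in the results was not tested.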

How the data were processed

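Raw counts per Ensembl gene and FPKM values for 15 libraries, 5 in each group, were deposited by the authors. Per the submitters' processing notes, STAR 2.5, HTSeq 0.6.1, DESeq2 and mm10 belong to the processing, without a role or order. Use of strand in counting was not given in the sources used here; genes that overlap, antisense ones included, may share reads. Groups came from the labels. Genes were kept by filterByExpr (minimum count 10). In R 4.3.3, edgeR 4.0.16 (TMM, 1 mean per group, robust quasi-likelihood F test) was fitted to all 15 libraries, with Benjamini-Hochberg adjustment over 13837 genes and a threshold of 0.05. The FPKM values deposited by the authors served for levels per length. Scripts were checked on simulated counts. Alternatives used DESeq2 1.42.0, limma 3.58.1 on log2(FPKM + 1) or log2(FPKM + 0.1), other filters, a replicate block and omitted libraries. The members and lists were chosen with earlier results of these data known. Values in every library are given for members past the threshold in any comparison, and for the smallest p up to 3 in a set with fewer such members. Other pathway genes are named where they passed, at most 3 per list and comparison, with the receptors in any case. A gene of these lists is not reported here.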

Additional observations from a re-analysis of the deposited data

Results flagged for a closer look

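In 4 of 75 groups of 5 libraries tested, 1 library stood far from the others by its gap relative to the range of the group; chance gives about 1 in 20 such groups. Ddx58 had 11.6 CPM in IF16 replicate 1, and 8.78 to 9.4 in the other IF16 libraries. Mx1 had 1.38 CPM in EOD replicate 5, and 0.441 to 0.696 in the other EOD libraries. Irgm1 had 42.2 CPM in AL replicate 1, and 32.6 to 34 in the other AL libraries. The mean-centred log2 CPM of the GTPase genes was 0.57 in AL replicate 1, and 0.07 to 0.21 in the other AL libraries.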

How the results depend on the processing

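Type I calls in IF16 against AL were 5, and 3 with the replicate block, 2 without AL replicates 4 and 5, and 3 to 6 with 1 library left out. The 6 were reached without AL replicate 3, with Irf1 added, and without EOD replicate 5, with Ddx58 added. GTPase calls in IF16 against AL were 1 in DESeq2 in place of 0, and 0 to 1 with 1 library left out. GTPase calls in EOD against AL were 2 of 4 in limma on log2(FPKM + 1) without a filter, and 2 to 4 with 1 library left out. Type I calls ranged from 14 to 17 in EOD against AL and from 3 to 7 in EOD against IF16 with 1 library left out. Over all genes, IF16 against AL gave 484 calls, 937 in DESeq2, 261 in limma without a filter and 241 to 619 with 1 library left out. EOD against IF16 gave 2229, and 1418 (without IF16 replicate 5) to 3383 (without EOD replicate 5). Labels do not say that replicate numbers pair: 15 same-numbered pairs of libraries had correlations of -0.13 to 0.22, 5 of them over 0.1, and 8 of 30 best matches were the same number. With the replicate block the calls of Zbp1 and Ifi27 (IF16 against AL), Irgm1 (EOD against AL) and Oas1a (EOD against IF16) were lost, and no other call of a member described by library changed. Signs of values that were not called turned for some genes. In IF16 against AL this was so without AL replicates 4 and 5 for Ifnar2 (0.04), Irf5 (0.14), Ifitm3 (0.12) and Ifngr2 (0.23), and over single omissions Tlr7 ranged from -0.08 (without IF16 replicate 1; -0.03 without AL replicate 3) to 0.28, Ifngr1 from -0.02 (without AL replicate 3) to 0.29 and Ifngr2 from -0.36 to 0.05 (without AL replicate 4). In EOD against AL it was so without AL replicates 4 and 5 for Ifi27 (0.04) and Ifnar1 (0.05), and Ifnar1 ranged from -0.09 to 0.06 (above 0 without AL replicate 5, IF16 replicate 1 or EOD replicate 3 or 5: 0.02, 0.01, 0.04 and 0.06). In EOD against IF16 Irf1 ranged from -0.2 to 0.04 (without IF16 replicate 1) and Irgm1 from -0.02 (without EOD replicate 5) to 0.17. In limma on log2(FPKM + 1) without a filter, which tests more genes, the calls of Zbp1 (IF16 against AL), Irf1, Stat2, Trim25, Igtp, Irgm1, Irf5 and Tlr7 (EOD against AL), Oas1a (EOD against IF16) and Lgals9 (IF16 against AL and EOD against IF16) were lost, and that of Irgm1 also with a filter. On the log2(FPKM + 1) scale low genes such as Mx1, Rsad2 and Gbp7 had smaller fold changes, by the construction of that scale. The cause of the other changes was not tested.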
